A study of Arabidopsis thaliana with 27 samples.

Results

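The genes described here differed in mean level between hid1 and wild-type seeds of Arabidopsis thaliana at each of 3 times of dark incubation. Each gene went in the same direction at all 3 times. They were chosen on the measured levels themselves. Counts were divided by the library total and multiplied by 1e+06 (CPM) and averaged over the 3 libraries of a group. A gene was kept where (hid1 + 0.1)/(WT + 0.1) was at least 2 at 12, 24 and 48 h, or at most 0.5 at all 3 times, with 1 CPM or more in some WT or hid1 group. HID1 itself, 6 further genes and identifiers that end in a dot and a digit were left out. Of 33612 rows, 19286 genes met the level limit, and 84 of these met the ratio limits: 57 were higher and 27 lower in hid1. All 84 of 84 passed the filter on low counts. Since hid1 and WT levels chose these genes, the ratios of hid1 to WT below are a description and carry no test.

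The groups were wild-type Col-0 (WT), hid1, a mutant of the noncoding RNA gene HID1, and phyB, a mutant of the photoreceptor gene PHYB. The labels name no mutant alleles. Plants of all 3 genotypes grew together, and every group shared about 2 months of seed drying, white light for 1 h, a red pulse of 5 min (20 μmol m-2 s-1) that activates phytochrome B, and then darkness for 12, 24 or 48 h. Each of the 9 groups held 3 biological replicates, and the 27 libraries held between 14750212 and 26293148 counts.

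Phytochrome B is the red light receptor through which an imbibed seed decides to germinate: activated by red light, it lowers abscisic acid, raises gibberellin and releases the embryo's growth. In a germinating seed, transcripts left over from maturation, such as those of storage proteins, are lost, while those for cell wall growth, vacuole filling and the photosynthetic apparatus appear. HID1 is a noncoding RNA first described in the response of seedlings to light.

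HID1 was nearly absent from hid1 seeds, with 0 to 1 count per library, against 370 to 500 counts in WT at 12 h, 296 to 348 at 24 h and 243 to 318 at 48 h. The phyB seeds still held PHYB transcripts, at 57.9 to 84.4 CPM against 103 to 145 CPM in WT. The hid1 libraries at 48 h resembled WT at 24 h more than WT at 48 h across all genes, with correlations of 0.956 to 0.958 with the mean of the former and 0.836 to 0.843 with that of the latter. Endosperm markers (4 genes, none at 0) summed to 608 to 677 CPM in hid1 at 48 h and 142 to 228 CPM in WT. Of 6 seed coat markers, 1 was at 0 in WT and 3 in hid1 at 48 h, and their sums were 169 to 182 and 54.5 to 64.8 CPM. Embryo epidermis and meristem markers (8 genes, none at 0) summed to 889 to 936 CPM in hid1 and 1563 to 1906 CPM in WT. In bulk seeds fewer cells of a type and less RNA per cell cannot be told apart, and the part of these differences in the ratios below was not tested.

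Among the genes higher in hid1 is the noncoding transcript AT4G13495, which spans chr4:7842967-7846774 (plus strand, TAIR10.1). Its locus overlaps the microRNA genes MIR850A, MIR5026 and MIR863, and MIR850A (AT4G13493, chr4:7845707-7845927) is itself among the 57. The mature microRNAs annotated by RefSeq for these microRNA genes are shown because a library of poly(A) RNA reads host and precursor transcripts, not the small RNAs. The sequence of miR863-3p (chr4:7846835-7846855) lies beyond the annotated end of AT4G13495. Capitals mark bases 2 to 8, often called the seed, which differ among the sequences shown. Targets were not searched for, and none is read from these bases.
ath-miR850: uAAGAUCCggacuacaacaaag
ath-miR5026: aCUCAUAAgaucgugacacgu
ath-miR863-5p: uUAUGUCUuguugaucucaau
ath-miR863-3p: uUGAGAGCaacaagacauaau

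AT4G13495 held 6.21, 4.94 and 7.04 CPM in the WT libraries at 12 h and 17.99, 14.2 and 17.0 CPM in hid1. At 24 h the WT libraries held 6.58, 6.51 and 7.76 CPM and those of hid1 26.9, 28.9 and 23.5 CPM. At 48 h they held 8.10, 8.67 and 9.22 CPM and 48.2, 50.6 and 51.3 CPM. Every hid1 library lay above every WT library, and the log2 ratio was 1.42, 1.91 and 2.52 at the 3 times. In phyB the same transcript lay on the other side of WT: edgeR's quasi-likelihood test gave a log2 change of -0.50 ± 0.13 (SE) at 12 h (adjusted p = 0.00198), -1.77 ± 0.16 at 24 h (adjusted p = 2.12e-10) and -1.49 ± 0.14 at 48 h (adjusted p = 1.93e-10, n = 3 per group, Benjamini-Hochberg over 20465 genes). With the phyB labels of 12 and 24 h exchanged, which are in doubt as described further on, it was -1.85 ± 0.16 at 12 h and -0.42 ± 0.13 at 24 h (edgeR adjusted p = 2.35e-10 and 0.00751). MIR850A was scarce, with 0.105 to 0.279 CPM in WT at 12 h and 0.407 to 1.19 CPM in hid1, and 0.271 to 0.482 against 1.58 to 2.84 CPM at 48 h. It lies inside AT4G13495 on the same strand, so the counts of the pair may hold the same reads. Both were singled out after their values were seen.

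Most ratios were farthest from 1 at 48 h, though not all grew steadily. For the 57 higher genes the median log2 ratio was 1.45 at 12 h, 2.09 at 24 h and 3.16 at 48 h, with ranges of 1.01 to 3.52, 1.09 to 4.88 and 1.12 to 6.14. For the 27 lower genes it was -1.29, -1.40 and -2.69, with the most negative at -3.08, -3.22 and -7.50. The ratio was farthest from 1 at 48 h in 46 of the 57 and in 24 of the 27, and grew from 12 to 24 to 48 h in 40 of the 57 and in 13 of the 27. The hid1 level of the higher genes was itself greatest at 48 h in 36 of 57, whereas the WT level of the lower genes was greatest at 48 h in 21 of 27. Among all genes tested, 13.4% were called in hid1 against WT at 12 h, 15.3% at 24 h and 79.2% at 48 h (edgeR adjusted p under 0.05). Differences at 48 h were thus widespread, and nothing particular to the chosen genes is read from these counts.

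**Figure D1:**
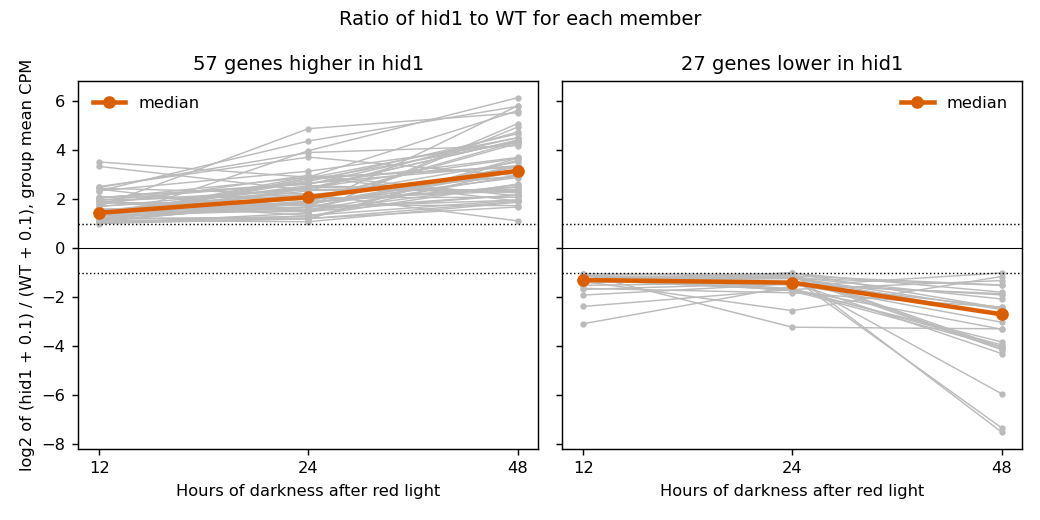
Log2 ratio of hid1 to WT group means (CPM + 0.1) against hours of darkness, 1 grey line per gene, with the median in orange and the limits of the rule dotted. The medians of the 57 higher genes go from 1.45 to 3.16 and those of the 27 lower genes from -1.29 to -2.69.

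The genes just inside the limit for higher genes were AT3G45730 (nearest log2 ratio 1.01), AT1G71280 (1.01) and AT4G00250 (1.06), and those just outside were AT3G09680 (0.99), AT1G23410 (0.99) and AT5G09290 (0.99). For lower genes TEM1 (-1.004), AT3G44006 (-1.01) and PORB (-1.01) lay just inside, and GLU1 (-0.99), RBCS3B (-0.99) and ABCG35 (-0.98) just outside.

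The higher and lower genes differed in how well the libraries separated. Of the higher genes, 54 of 57 had all 3 hid1 libraries above all 3 WT libraries at every time, where 1.34% of the 19286 genes did so. Of the lower genes, 6 of 27 had all hid1 libraries below all WT libraries at every time, where 1.08% did so. The rule used this contrast, so nothing is read from these shares. The overlap of the lower genes lay at 12 h: 6 of 27 were free of it at 12 h, 26 of 27 at 24 h and 26 of 27 at 48 h. No share over all genes is given for single times, and nothing is read from these counts either. Lower calls in hid1 over all genes tested were 5.91%, 6.87% and 43% at the 3 times (edgeR adjusted p under 0.05). Among WT libraries at 12 h, replicate 1 was the highest for 22 of the 27 and replicate 2 the lowest for 24. Their median level over the 27 genes was 2.09 CPM in replicate 1, 0.263 CPM in replicate 2 and 1.12 CPM in replicate 3, against 0.217, 0.203 and 0.329 CPM in the hid1 libraries. Without WT replicate 1 at 12 h the rule found 10 lower genes, of which 8 were among the 27, and without WT replicate 2 it found 44, of which 26 were. Without hid1 replicate 3 at 12 h it found 37. The number of higher genes lay between 53 and 62 whichever of the 18 libraries was left out. In all, 42 of the 57 higher and 4 of the 27 lower genes met the rule without each library in turn. The 4 were MLO12, JAL33, AT2G41640 and AT1G61180.

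**Figure D2:**
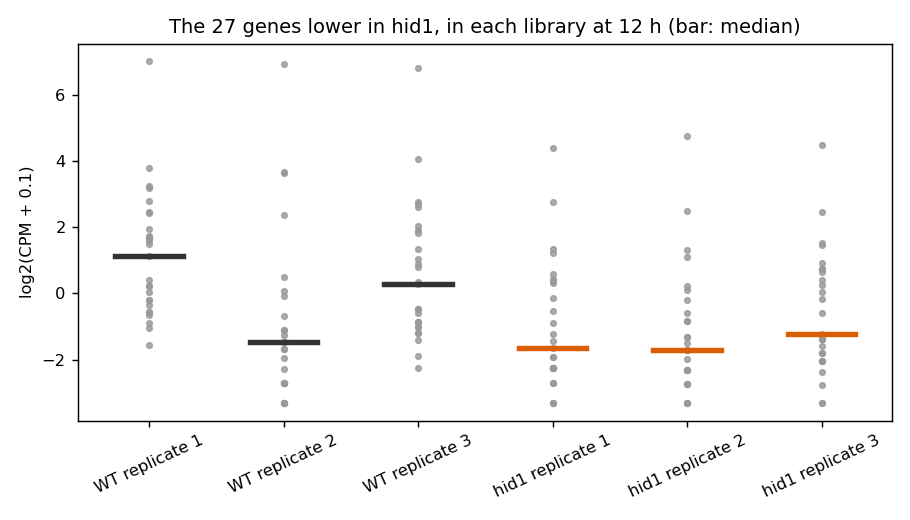
Level, as log2(CPM + 0.1), of the 27 genes lower in hid1 in each of the 6 WT and hid1 libraries at 12 h, with 1 grey point per gene and a bar at the median. The median of WT replicate 2 (0.263 CPM) lies near those of the hid1 libraries (0.203 to 0.329 CPM), and WT replicates 1 and 3 lie above.

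The 57 higher genes were a scarce and mixed set. Their median level in the highest WT or hid1 group was 7.04 CPM, against 25.8 CPM for all 19286 genes, and 24 of 57 stayed under 5 CPM. By type 49 were protein coding (86.0%, against 98.0% of the 19286), 3 were pseudogenes, 3 other noncoding RNAs, 1 an antisense transcript and 1 a microRNA gene. F-box proteins, which choose targets for protein breakdown, made up 4 of 57 (7.02%, against 0.913%), and cytochrome P450 enzymes another 4 (7.02%, against 0.778%). Chromosome 3 carried 19 of the 57 (33.3%, against 19.6%). All 27 lower genes were protein coding, with a median of 33.3 CPM in the highest group. Of the 84 genes, 21 overlap another annotated gene, with counting tool and strand setting not given in the sources used here. Reads of such pairs, and of close copies such as the jacalin lectins, the 2S albumins and the P450 genes, cannot be told apart here.

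The P450 genes included enzymes of tryptophan-derived defence metabolism. CYP71A18 held 0.0485, 0.0526 and 0.112 CPM in WT at 12 h and 2.76, 0.254 and 2.58 CPM in hid1, and its ratio was the largest of all members at 12 h (log2 3.52). At 24 h it held 0.0525 to 0.175 CPM in WT and 1.29 to 1.39 CPM in hid1, and at 48 h 0.0388 to 0.107 and 1.37 to 1.77 CPM. The groups did not overlap, though hid1 replicate 2 at 12 h stood far below its partners. CYP82C2, which hydroxylates an indole defence compound, had the same low library: hid1 held 4.33, 0.407 and 3.71 CPM at 12 h and WT 0.340, 0 and 0.224 CPM. PAD3, which makes the antimicrobial camalexin, had log2 ratios of 1.6005, 1.598 and 2.17 at levels of at most 1.23 CPM. CYP71A25, picked after its values were seen, was at 2.31 to 2.51 CPM in WT and 6.22 to 8.18 CPM in hid1 at 24 h. In phyB it lay below WT by 4.58 ± 0.52 on the log2 scale at 24 h (edgeR adjusted p = 2.18e-08), and with the phyB labels of 12 and 24 h exchanged by 2.70 ± 0.39 (adjusted p = 9.76e-07). CYP71A18 and CYP82C2 did not pass the test at any time, but CYP82C2 passed it at 24 h with the replicate block (2.57, adjusted p = 0.0205), with no filter on low counts (adjusted p = 0.0265) and in DESeq2 (adjusted p = 0.0141). With the labels exchanged CYP82C2 did not pass it, at 0.99 ± 0.95 at 12 h and 1.22 ± 1.43 at 24 h (edgeR adjusted p = 0.390 and 0.470). Of the 10 genes on a defence list 5 were tested in edgeR, and PAD3 was the only member of it among the 84. Summed over the 10 genes, some of them at 0 in every group, the list went the other way. It held 5.14 to 6.42 CPM in WT and 3.17 to 3.49 CPM in hid1 at 24 h. At 48 h the sums were 53.2 to 64.4 CPM in WT and 10.5 to 11.5 CPM in hid1, and at 12 h they overlapped.

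Genes for RNA processing and translation formed a group of 8, and several are minor copies of housekeeping genes. NUC-L2, the lesser of the Arabidopsis nucleolins that act on ribosomal RNA genes, held 33.2, 30.2 and 29.5 CPM in WT at 12 h and 76.4, 66.3 and 75.2 CPM in hid1. At 24 h WT held 22.1, 19.9 and 22.1 CPM and hid1 88.9, 80.1 and 76.3 CPM. At 48 h they held 6.28, 4.15 and 4.29 CPM and 101, 103 and 103 CPM. The WT and hid1 libraries did not overlap at any time, and the log2 ratio was 1.23, 1.93 and 4.36. In WT it fell by 0.82 ± 0.10 from 12 to 24 h and by 2.07 ± 0.12 from 24 to 48 h (edgeR adjusted p = 3.90e-08 and 6.83e-15). AT1G71280, a DEAD-box RNA helicase, fell by 2.19 ± 0.31 in WT from 24 to 48 h (adjusted p = 3.54e-07), and its hid1 libraries stood between 4.17 and 6.81 CPM at every time. AT2G18720, of the elongation factor EF1A family, was at 0.116 to 0.266 CPM in WT and 2.41 to 3.07 CPM in hid1 at 48 h.

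AT1G17960, annotated as a threonyl-tRNA synthetase, had its highest levels late in hid1. It was at 0 to 0.0559 CPM in WT and 0.325 to 0.763 CPM in hid1 at 12 h, and at 0.0583 to 0.210 and 3.83 to 6.22 CPM at 24 h. At 48 h the WT libraries held 0.930, 0.989 and 1.29 CPM and those of hid1 63.6, 62.6 and 67.9 CPM. All hid1 libraries lay above all WT libraries, and the log2 ratio at 48 h was 5.79. AT2G04050, a MATE efflux carrier of the kind that exports toxins, was likewise highest in hid1 at 48 h: WT held 4.50, 2.85 and 5.84 CPM at 48 h and hid1 87.9, 84.9 and 92.5 CPM, from 0.758 to 1.02 CPM at 12 h. In WT AT2G04050 rose by 3.21 ± 0.81 from 12 to 24 h and 2.07 ± 0.33 from 24 to 48 h (edgeR adjusted p = 0.00109 and 2.32e-06). AT3G45730, of unknown function, was at 1.26 to 2.79 CPM in WT and 3.68 to 4.37 CPM in hid1 at 12 h, and at 0.989 to 1.34 and 38.3 to 43.4 CPM at 48 h.

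**Figure D3:**
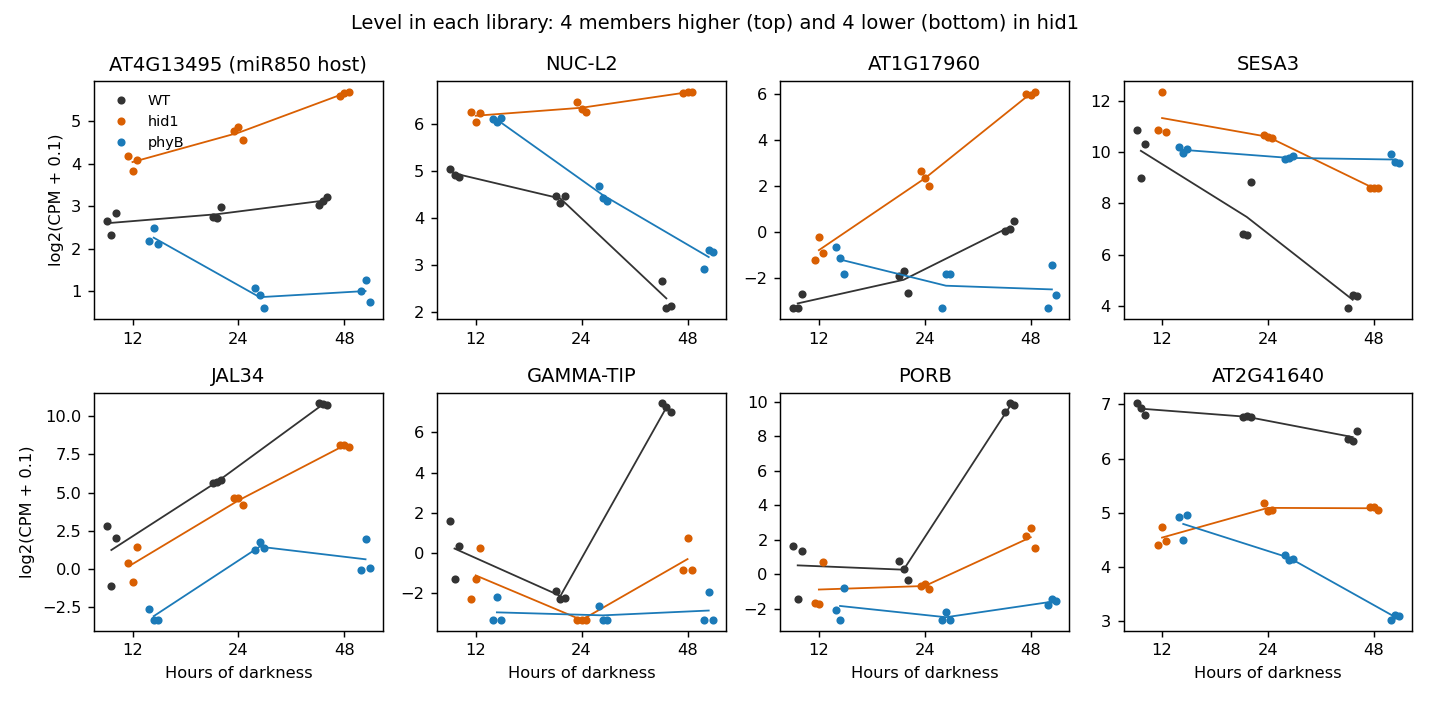
Level in each library, as log2(CPM + 0.1), against hours of darkness for 4 genes higher (top) and 4 lower (bottom) in hid1, with WT in black, hid1 in orange and phyB in blue (3 points per group; lines join the means). NUC-L2 is at 66.3 to 103 CPM in hid1 over the 3 times and at 4.15 to 6.28 CPM in WT at 48 h, and PORB reaches 683 to 963 CPM in WT and 2.73 to 6.38 CPM in hid1.

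Transcription regulators formed a further group of 8. NAC044, picked after its values were seen, is known to hold back cell division after DNA damage, under control of the factor SOG1. NAC044 held 1.36, 1.16 and 0.950 CPM in WT at 12 h and 7.04, 5.70 and 6.999 CPM in hid1. At 24 h the libraries held 10.13, 8.76 and 7.35 CPM in WT and 30.2, 25.1 and 17.3 CPM in hid1, and at 48 h 2.05, 2.09 and 2.09 CPM and 65.9, 67.3 and 68.0 CPM. In WT the level passed through a peak at 24 h, with a rise of 2.63 ± 0.23 and a fall of 2.03 ± 0.19 on the log2 scale (edgeR adjusted p = 8.57e-11 and 1.77e-10), whereas in hid1 it was highest at 48 h. AT5G46710, a PLATZ zinc finger factor, was at 0 to 0.335 CPM in WT and 1.02 to 1.41 CPM in hid1 at 12 h, 1.52 to 2.74 and 6.98 to 11.1 CPM at 24 h, and 4.57 to 5.74 and 22.4 to 23.9 CPM at 48 h. Its log2 ratio hardly moved, at 2.1003, 2.059 and 2.085. AT4G00250, a storekeeper-type regulator, was at 8.15 to 9.35 CPM in WT and 16.8 to 19.4 CPM in hid1 at 12 h, and at 2.75 to 3.70 and 10.98 to 13.2 CPM at 48 h.

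Promoters of genes with high hid1 levels at 48 h are shown because they hold the motif named for SOG1, CTT and AAG with 7 bases of any kind between them. Sequences are from RefSeq for TAIR10.1, read 5′ to 3′ on the gene's strand, with the fixed letters of the motif in capitals and the first base given from the gene's start. The first match of AT2G04050 begins at -215 (chr2:1339641-1339713, minus strand) and the second at -156 (chr2:1339582-1339654). That of AT1G17960 begins at -66 (chr1:6183830-6183902, minus strand), that of NAC044 at -65 (chr3:228980-229052, plus strand), that of AT2G18193 at -73 (chr2:7919376-7919448, minus strand) and that of NUC-L2 at -190 (chr3:6408094-6408166, minus strand).
AT2G04050 first: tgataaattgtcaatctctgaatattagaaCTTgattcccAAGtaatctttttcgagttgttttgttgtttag
AT2G04050 second: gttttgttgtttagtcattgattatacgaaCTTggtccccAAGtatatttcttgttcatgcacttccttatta
AT1G17960: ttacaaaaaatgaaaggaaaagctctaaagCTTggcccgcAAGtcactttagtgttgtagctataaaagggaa
NAC044: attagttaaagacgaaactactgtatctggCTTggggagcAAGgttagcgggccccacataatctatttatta
AT2G18193: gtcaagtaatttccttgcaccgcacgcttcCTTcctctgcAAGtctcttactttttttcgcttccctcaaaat
NUC-L2: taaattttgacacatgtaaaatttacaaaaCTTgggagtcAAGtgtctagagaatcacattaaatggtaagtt

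In windows from 250 bases before to 50 after the start, searched on both strands, this motif was present in 10 of 49 higher genes (20.4%), 1 of 27 lower genes (3.70%) and 11.8% of all 27443 promoters. The motif was chosen after values were seen, and a match is only a run of letters. AT2G18193, an ATPase of unknown role picked for this motif, was at 1.55 to 1.77 CPM in WT and 95.4 to 105 CPM in hid1 at 48 h, against 0.158 to 1.07 and 1.47 to 2.11 CPM at 12 h. Among motifs taken from the design, the G-box CACGTG, which light-regulated factors bind, was present in 12.2% of higher, 11.1% of lower and 7.68% of all promoters. The evening element AAAATATCT of the circadian clock was in 3 of 27 lower genes (11.1%, against 2.82% of all). The W-box TTGACC was in 16.3% of higher and 7.41% of lower promoters, against 14.2% of all. The W-box TTGACT was in 24.5% and 29.6%, against 21.8%. The phytochrome-interacting factor site CACATG was in 18.4% and 11.1%, against 12.9%. The seed maturation element CATGCA was in 8.16% and 11.1%, against 9.72%. The GCC-box GCCGCC was in 8.16% of higher, no lower and 2.57% of all promoters. The abscisic acid elements ACGTGGC and ACGTGTC were in 0% and 8.16% of higher, 7.41% and 3.70% of lower, and 4.08% and 4.33% of all promoters. The heat shock element was in 0% of higher, 3.70% of lower and 0.481% of all promoters, and CCACGTCA, bound by stress bZIP factors, in 1.51% of all and in no member.

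Among storage protein genes was the most abundant member. SESA3, a 2S albumin, held 1852, 504 and 1274 CPM in WT at 12 h and 1844, 5224 and 1767 CPM in hid1. At 24 h WT held 112.6, 108 and 453 CPM and hid1 1604, 1519.8 and 1519 CPM. At 48 h the libraries held 14.8, 21.6 and 20.5 CPM in WT and 386, 383 and 384 CPM in hid1. The groups overlapped at 12 h, where hid1 replicate 2 stood far above and WT replicate 2 far below the others, and were apart later. Its neighbour SESA1 and the 12S globulin gene CRU2 had the same outlying libraries at 12 h, and each of the 3 genes failed the rule without some library (2 of 18 in each case). SESA3 fell by 2.71 ± 0.44 and then 3.52 ± 0.48 on the log2 scale in WT (edgeR adjusted p = 4.56e-06 and 1.44e-07). Of 13 storage protein and oleosin genes, 13 fell in WT from 12 to 24 h, where 32.4% of all genes tested did so.

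The pseudogene AT2G35570 had 0 to 0.0536 CPM in WT and 5.23 to 6.38 CPM in hid1 at 48 h, and 0.158 to 0.224 and 0.661 to 1.35 CPM at 12 h. The pseudogene AT5G34795 had 0.349 to 0.697 and 7.45 to 9.28 CPM at 48 h. The antisense transcript AT4G34071 had 0 to 0.161 and 1.13 to 1.42 CPM. Among F-box genes AT3G20710 stood out: WT held 1.55, 1.47 and 1.62 CPM at 12 h and hid1 7.21, 6.15 and 7.14 CPM, and at 48 h WT held 0.194, 0.0761 and 0.0536 CPM and hid1 4.29, 4.72 and 4.95 CPM. The F-box gene AT1G66320 was at 0 in all WT libraries at 48 h and at 0.171 to 1.07 CPM in hid1. AT3G29580, a MATH domain protein, had a single WT library above 0 at 48 h (0.0380 CPM) and 1.71 to 2.096 CPM in hid1.

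The 27 lower genes were mostly at their highest in WT at 48 h. From 24 to 48 h in WT, 22 of the 27 were called higher and 4 lower, where 44.2% and 38% of all 20465 genes tested were (edgeR adjusted p under 0.05; median log2 4.32, against 0.07 over all genes). Of the 57 higher genes 9 were called higher and 26 lower (median -0.87). From 12 to 24 h, 11 of the 27 were called higher and 6 lower, and 12 and 13 of the 57, where 33.1% and 32.4% of all genes were. The rule used the same WT libraries, and 3 of the 27 met its level limit through WT at 48 h alone, so a higher level there is favoured by the choice and nothing is read from these counts.

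Cell wall and surface genes numbered 6. BXL1, a xylosidase that trims wall polysaccharides, held 5.24, 0.946 and 1.73 CPM in WT at 12 h and 0.813, 0.763 and 1.55 CPM in hid1. At 24 h the levels were 1.07, 0.420 and 1.69 CPM and 0.322, 0.234 and 0.229 CPM, and at 48 h 703, 590.31 and 590.36 CPM and 60.5, 68.8 and 61.6 CPM. The groups overlapped at 12 h and were apart at the later times, and in WT BXL1 rose by 9.27 ± 0.30 from 24 to 48 h (edgeR adjusted p = 1.61e-20). ELP, an extensin-like protein, reached 312 to 408 CPM in WT and 18.9 to 23.7 CPM in hid1 at 48 h. CER1, which makes the alkanes of cuticular wax, reached 279.96 to 321 and 23.3 to 37.8 CPM.

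AT2G41640, a family 61 glycosyltransferase, differed from this pattern. It held 129, 122 and 112 CPM in WT at 12 h and 21.1, 26.6 and 22.3 CPM in hid1. The levels were 108.7, 110.03 and 108.8 CPM against 36.2, 32.8 and 33.1 CPM at 24 h, and 81.7, 80.4 and 90.7 CPM against 34.4, 34.2 and 32.9 CPM at 48 h. The groups never overlapped, and the ratio shrank with time, from log2 -2.37 to -1.68 and -1.31. It overlaps AT2G41650 on the same strand. AT3G44006, of unknown function, likewise had its largest difference at 12 h, with 9.46, 12.4 and 6.71 CPM in WT and 1.25, 1.07 and 0.799 CPM in hid1 (log2 -3.08), and stood near the limit at 48 h.

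The largest ratios were those of PORB and GAMMA-TIP at 48 h. GAMMA-TIP, a water channel of the vacuole, held 172, 152 and 128 CPM in WT at 48 h and 0.466, 1.61 and 0.455 CPM in hid1. At 24 h it was at 0.105 to 0.169 CPM in WT and 0 in hid1, and at 12 h at 2.91, 0.315 and 1.17 CPM against 0.108, 0.305 and 1.08 CPM. WT and hid1 overlapped at 12 h. PORB, which carries out the light-dependent step of chlorophyll synthesis, held 683, 963 and 897 CPM in WT at 48 h and 4.66, 6.38 and 2.73 CPM in hid1, the largest ratio of all (log2 -7.50). At 12 h PORB was at 3.06, 0.263 and 2.46 CPM and 0.217, 0.203 and 1.55 CPM, which overlap. GAD2, which turns glutamate into GABA, reached 143 to 180 CPM in WT and 2.33 to 2.84 CPM in hid1 at 48 h. VHA-E3, a subunit of the vacuolar proton pump, reached 33.6 to 36.9 and 1.86 to 2.31 CPM.

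A cluster of 3 jacalin lectin genes lies on chromosome 3, with 5033 bases between JAL31 and JAL33 and 2405 between JAL33 and JAL34. JAL34 held 6.89, 0.368 and 4.02 CPM in WT at 12 h and 1.19, 0.458 and 2.68 CPM in hid1. It was at 48.9, 52.7 and 56.3 CPM in WT and 25.03, 24.9 and 18.1 CPM in hid1 at 24 h, and 1818, 1774 and 1694 CPM against 277, 282 and 259 CPM at 48 h. The groups overlapped at 12 h and separated from 24 h. JAL33 reached 85.4 to 104 CPM in WT and 11.4 to 12.4 CPM in hid1 at 48 h, and JAL31 129 to 139 and 24.5 to 26.0 CPM. The transcription factors BZIP61 (67.4 to 69.6 and 3.07 to 3.59 CPM) and TEM1, a repressor of flowering (24.7 to 35.5 and 4.27 to 5.96 CPM), are given at 48 h, WT first.

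The other named lower genes were of mixed annotation, and no theme is read from them. HSP17.6II, a small heat shock protein, held 9.07, 0.841 and 6.43 CPM in WT at 12 h and 2.44, 2.03 and 1.78 CPM in hid1, and 0.965 to 1.43 and 0 to 0.512 CPM at 48 h. The groups overlapped at 12 h. At 24 h WT held 1.91, 1.78 and 7.93 CPM and hid1 1.06 to 1.54 CPM. The log2 ratio of -1.44 at 24 h shrank to as little as -0.41 with a library left out. HSP17.6II was the only member among the 9 genes of a heat shock list. Summed, these 9 genes held 323 to 399 CPM in WT and 171 to 199 CPM in hid1 at 24 h. At 48 h the order was reversed, with 78.6 to 93.3 CPM in WT and 169 to 210 CPM in hid1, and at 12 h the sums overlapped. MLO12, of the family that governs powdery mildew susceptibility, held 5.13 to 6.97 CPM in WT and 0.429 to 2.05 CPM in hid1 at 48 h. UMAMIT33, of an amino acid exporter family, held 4.34 to 4.91 and 0.0569 to 0.326 CPM.

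The phyB libraries did not choose these genes, but they are compared with the same WT libraries as the rule used. A WT library that is high or low by its own error then moves both comparisons the same way, which favours lower calls in phyB among the 27 and higher calls among the 57. No likeness of the mutants is read from the counts below. Some libraries labelled phyB 12 h and 24 h differed from the other genotypes at those times. Mitochondrial transcripts made up 0.0178 to 0.0202% of counts in the libraries labelled phyB 12 h, against 0.128 to 0.160% in WT and 0.0764 to 0.116% in hid1 at 12 h, and 0.0195 to 0.0246% in those labelled phyB 24 h, where WT and hid1 were at 0.0151 to 0.0280%. In this measure the libraries labelled 24 h did not stand apart, and neither labelling gives phyB a share like that of WT at 12 h. The storage globulins CRA1 and CRU3 made up 0.853 to 0.942% of counts in the libraries labelled phyB 12 h, 5.08 to 5.46% in those labelled 24 h, 3.69 to 4.23% in WT at 12 h and 0.816 to 1.13% in WT at 24 h. Across genes, the libraries labelled phyB 12 h correlated with the WT mean at 12 h at 0.945 to 0.951 and those labelled 24 h at 0.967 to 0.969. With the WT mean at 24 h these correlations did not differ, at 0.934 to 0.942 and 0.936 to 0.940. HID1 was at 18.7 to 21.7 CPM in the libraries labelled phyB 12 h and 10.3 to 11.3 CPM in those labelled 24 h. In WT it was at 20.7 to 24.4 CPM at 12 h and 16.7 to 20.0 CPM at 24 h. Whether the labels of these groups were exchanged was not tested. Counts of calls in phyB against WT and the main values at 12 and 24 h are given both ways. The change of the phyB effect from 12 to 48 h is given only as labelled.

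At 48 h 21 of the 27 lower genes were called lower and 3 higher, where 49.4% and 40% of all genes tested were. Their median log2 change was -7.11, or -5.88 with the 6 genes of 3 or fewer phyB counts set to the floor of 3 counts per group, against -0.24 over all genes. In the libraries labelled 12 h, 15 were called lower and 8 higher (background 34.2% and 30%), and in those labelled 24 h 15 and 3 (background 34.6% and 31.8%). With these labels exchanged the numbers were 13 and 5 at 12 h and 19 and 7 at 24 h (background 28.7% and 28.4%, and 34.4% and 33.1%). Lower calls at all 3 times were made for 11 of the 27 and higher calls for 2, where 11.5% and 8.75% of all genes tested had them. With the labels exchanged these were 10 and 2 (background 10.7% and 9.62%).

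PORB held 0.188, 0.274 and 0.238 CPM in phyB at 48 h, a change of -11.12 ± 0.36 (edgeR adjusted p = 3.67e-21). JAL31 held 0.0940, 0.165 and 0.0476 CPM (-9.65 ± 0.25, adjusted p = 4.43e-22), and BXL1 0.282, 1.92 and 0.428 CPM (-8.88 ± 0.30, adjusted p = 1.01e-20). All of these phyB libraries lay below all hid1 libraries of the same time. AT2G41640 held 30.2, 22.5 and 31.1 CPM in the libraries labelled phyB 12 h, 18.7, 17.403 and 17.7 CPM in those labelled 24 h and 8.04, 8.56 and 8.47 CPM at 48 h (-2.27 ± 0.09, -2.38 ± 0.09 and -2.65 ± 0.10, adjusted p = 6.47e-18, 9.95e-18 and 1.92e-19). AT2G41640 under exchanged labels was at -2.81 ± 0.09 at 12 h and -1.83 ± 0.09 at 24 h (edgeR adjusted p = 2.00e-18 and 4.95e-16). Both chaperone genes among the 27, HSP17.6II and AT1G71000, were called higher at all 3 times. HSP17.6II held 18.1, 9.79 and 36.0 CPM, 14.3, 14.8 and 9.87 CPM, and 3.86, 1.81 and 2.28 CPM (1.81 ± 0.45, 2.00 ± 0.49 and 1.88 ± 0.70, adjusted p = 0.000863, 0.000842 and 0.0143). Its call at 48 h was lost when libraries were scaled to their totals (adjusted p = 0.103) or phyB replicate 1 was left out (adjusted p = 0.0967). Under exchanged labels HSP17.6II was at 1.19 ± 0.46 at 12 h and 2.62 ± 0.48 at 24 h (edgeR adjusted p = 0.0299 and 2.29e-05). MLO12 was above WT in the libraries labelled 12 h (2.08 ± 0.43, edgeR adjusted p = 0.000108) and stood at 0.79 ± 0.41 and 0.54 ± 0.32 at the other times (adjusted p = 0.0881 and 0.112). MLO12 passed the test at 24 and 48 h with the replicate block (adjusted p = 0.0462 and 0.0481), and at 24 h with no filter on low counts (adjusted p = 0.0414). With the labels exchanged it was at 1.49 ± 0.45 at 12 h and 1.39 ± 0.38 at 24 h (edgeR adjusted p = 0.00662 and 0.00214).

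**Figure D4:**
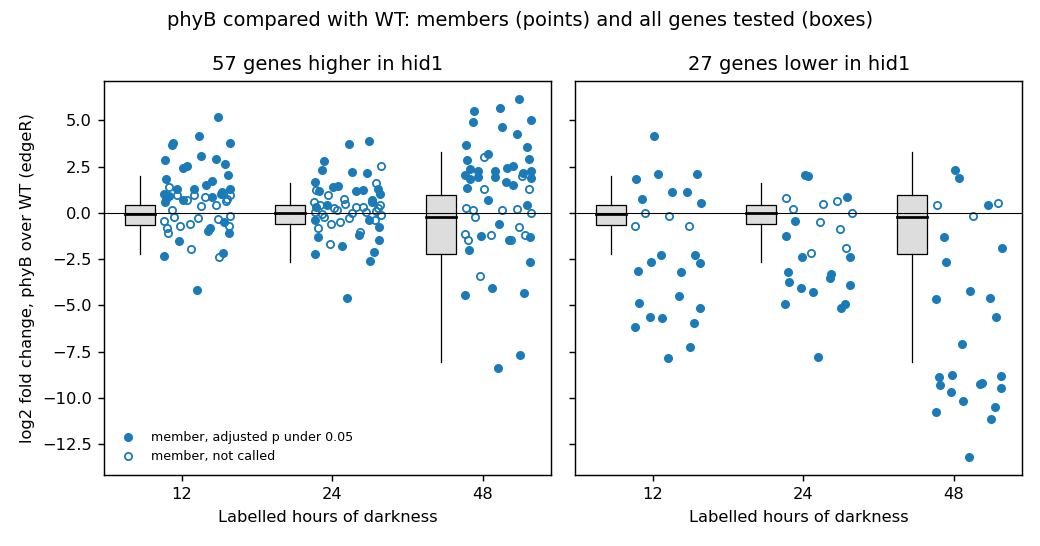
Log2 fold change of phyB over WT from edgeR for the 57 higher (left) and 27 lower genes (right), by labelled hours; filled points have an adjusted p under 0.05. Boxes give the quartiles and whiskers the 5th and 95th percentiles of all 20465 genes tested; at 48 h 21 of 27 lower genes were called lower, and 29 of 57 higher genes higher.

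The 57 higher genes were divided in phyB. At 48 h 29 were called higher and 11 lower (background 40% and 49.4%), with a median of 1.33, which was the same with groups of 3 or fewer counts at the floor and 4 genes left out. Scaling by total counts, which moved the median of all genes at 48 h from -0.24 to -0.92, gave 26 and 19. In the libraries labelled 12 h, 26 were called higher and 8 lower (background 30% and 34.2%), and in those labelled 24 h 18 and 11 (background 31.8% and 34.6%). With the labels exchanged the numbers were 18 and 8 at 12 h and 25 and 7 at 24 h (background 28.4% and 28.7%, and 33.1% and 34.4%). Higher calls at all 3 times were made for 11 of the 57 and lower calls for 2 (background 8.75% and 11.5%). With the labels exchanged they were made for 9 and 1 (background 9.62% and 10.7%).

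The storage genes lay above WT in phyB at 48 h. SESA3 was at 984, 784 and 759 CPM (6.16 ± 0.52 over WT, edgeR adjusted p = 1.24e-11). CRU2 was at 999, 930.2 and 897 CPM (5.50 ± 0.32, adjusted p = 2.61e-15). SESA3 did not rise over time in phyB, with 987 to 1173 CPM in the libraries labelled 12 h, whereas its WT level fell. SESA1, SESA3 and CRU2 were also called higher at 24 h under either labelling. Of the storage list 13 of 13 genes were called higher at 24 and at 48 h (background 31.8% and 40%), and 11 of 13 at 24 h with the labels exchanged (background 33.1%). At 12 h 1 of the 13 was called higher and 10 lower (background 30% and 34.2%), and with the labels exchanged 5 and 3 (background 28.4% and 28.7%). AT1G34315, annotated as a membrane protein, was higher at each time, with 5.02 to 5.69 CPM, 9.21 to 10.8 CPM and 33.3 to 40.3 CPM in phyB against 1.16 to 1.52, 0.619 to 1.05 and 4.60 to 6.27 CPM in WT (1.85 ± 0.21, 3.88 ± 0.21 and 3.54 ± 0.13, adjusted p = 1.67e-08, 4.80e-15 and 3.43e-20). AT1G34315 under exchanged labels was at 2.87 ± 0.19 at 12 h and 2.86 ± 0.24 at 24 h (edgeR adjusted p = 1.01e-12 and 3.17e-11). AT4G00250 was at 8.80 to 11.7 CPM at 48 h (2.36 ± 0.12, adjusted p = 1.03e-16) and the receptor-like kinase gene AT5G59670 at 5.12 to 7.25 CPM (3.17 ± 0.18, adjusted p = 1.13e-15). The pseudogene AT3G30120 was at 1.19 to 2.16 CPM (4.91 ± 0.36, adjusted p = 4.67e-13) and AT3G62460, a putative endonuclease, at 7.90 to 9.87 CPM (1.81 ± 0.12, adjusted p = 7.59e-14).

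NUC-L2 showed how levels in the mutants could differ in size: at 48 h phyB held 7.52, 9.88 and 9.61 CPM (1.53 ± 0.13 over WT, edgeR adjusted p = 1.80e-11), above all WT and below all hid1 libraries. Of the genes highest in hid1 at 48 h, AT2G04050 did not pass the edgeR test in phyB at 48 h (-0.20 ± 0.28, adjusted p = 0.493). With scaling by total counts it was at -0.88 (adjusted p = 0.00402). AT5G46710 lay below WT in phyB at 48 h (-4.43 ± 0.37, adjusted p = 7.09e-12). NAC044 was at 47.9, 48.4 and 42.9 CPM in the libraries labelled phyB 12 h, 9.27, 7.48 and 6.50 CPM in those labelled 24 h, and 0.470, 0.604 and 0.523 CPM at 48 h. Its change was 5.17 ± 0.19, 0.05 ± 0.16 and -1.29 ± 0.35 (adjusted p = 7.03e-19, 0.828 and 0.00122). Under exchanged labels NAC044 was at 2.67 ± 0.23 at 12 h and 2.54 ± 0.13 at 24 h (edgeR adjusted p = 1.97e-10 and 2.36e-15). NAC044 was highest at 48 h in hid1 and lowest at 48 h in phyB.

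A list of 16 DNA damage response genes, drawn up after NAC044 was seen and holding none of the 84, is set beside it as a description. The calls below are those of single genes, and the list as a whole was not tested. In hid1, 5 of the 16 were called higher and 1 lower at 12 h, 4 and 7 at 24 h, and 11 and 3 at 48 h, where 7.49% and 5.91%, 8.46% and 6.87%, and 36.3% and 43% of all genes tested were (edgeR medians 0.33, -0.23 and 0.53). In the libraries labelled phyB 12 h all 16 were called higher, where 30% of genes were (median 2.41). In those labelled 24 h 6 were higher and 2 lower (background 31.8% and 34.6%), and at 48 h 4 were higher and 8 lower (median -1.57, background 40% and 49.4%). With the labels exchanged 15 were higher and 0 lower at 12 h, and 14 and 2 at 24 h (background 28.4% and 28.7%, and 33.1% and 34.4%). In WT 14 of the 16 rose from 12 to 24 h and 11 fell from 24 to 48 h (background 33.1% and 38%). BRCA1 (AT4G21070), which repairs broken DNA, was at 2.11 ± 0.26 in the libraries labelled phyB 12 h (adjusted p = 4.83e-08) and -3.42 ± 0.18 at 48 h (adjusted p = 4.01e-16). The value of BRCA1 at 12 h with the labels exchanged is not given here, so the former rests on the label.

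The effect of phyB changed between the libraries labelled 12 h and those of 48 h, upward in 19 and downward in 14 of the 57 higher genes, and upward in 1 and downward in 12 of the 27 lower genes. Of all genes tested 38.5% and 41% passed this interaction test in edgeR. It was not run with the labels of 12 and 24 h exchanged, so these counts rest on the label.

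**Figure D5:**
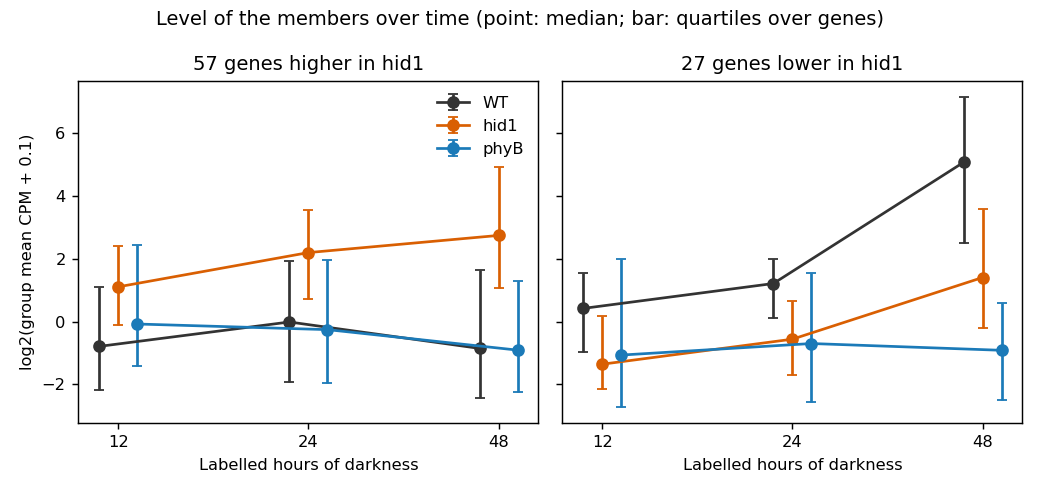
Level of the 57 higher (left) and 27 lower genes (right) as log2(group mean CPM + 0.1) against labelled hours; points are medians and bars quartiles over genes, which are not replicates. The median of the lower genes reaches 33.3 CPM in WT at 48 h, 2.54 CPM in hid1 and 0.431 CPM in phyB, and that of the higher genes reaches 6.57 CPM in hid1 and 0.453 and 0.433 CPM in WT and phyB.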

How the data were processed

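Poly(A) RNA of seeds was sequenced by the authors as 150-bp pairs (TruSeq kit, per the labels). The submitters' processing notes name fastp, HISAT2 2.1.0, SAMtools 1.6 and TAIR10, with the counting tool not given in the sources used here. Raw counts per gene and library made up the first deposited table, and the deposited FPKM table held the authors' means per group, used here only for symbols, locus types and as another unit for the rule. Values in the text are CPM from column sums. Changes in phyB and over time come from edgeR 4.0.16 (limma 3.58.1, R 4.3.3): 1 quasi-likelihood fit of 27 libraries with TMM scaling after filterByExpr (20465 genes, 18 residual degrees of freedom), two-sided, Benjamini-Hochberg adjusted, called under 0.05. The script was tested on simulated counts. Printed promoter and microRNA sequences come from RefSeq TAIR10.1, whose nuclear chromosomes were used with gene identifiers alone. Members, lists and tests were chosen with earlier results of these data known; the DNA damage list, the SOG1 motif and the FPKM alternative were added after values were seen.

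The rule for named genes took the 12 members of each direction with the largest smallest ratio, the 4 most abundant, the 6 with the smallest p in each direction in phyB at 48 h, members of a list, and the 3 genes on each side of the limit; others are marked as picked later. No column of the tables went unused. Replicate libraries were not duplicates. Same-numbered libraries did not deviate together, so no block was used. Alternatives were other scalings, no filter, DESeq2 1.42.0, a replicate block, exchanged phyB labels, leaving out each library, and other limits for the rule. Intervals and floors cover counting error only.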

Additional observations from a re-analysis of the deposited data

Results flagged for a closer look

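In 4 of the 26 named genes called in phyB at both 12 and 48 h, the change in phyB had opposite directions at those times, and the difference between the effects passed edgeR's quasi-likelihood test of the interaction (adjusted p under 0.05, passed upward by 38.5% and downward by 41% of all genes tested). All rest on the label of the phyB 12 h libraries. With the labels of 12 and 24 h exchanged AT5G46710 was at 1.78, TEM1 at 1.24 and SESA1 at -1.15 at 12 h (edgeR adjusted p = 0.00449, 0.0232 and 0.00501), and AT1G17960 did not pass the test (2.37, adjusted p = 0.143).

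AT5G46710, the PLATZ factor, was at 2.66 ± 0.45 (SE, adjusted p = 8.46e-06) in the libraries labelled phyB 12 h and -4.43 ± 0.37 at 48 h (adjusted p = 7.09e-12), a difference of -7.09 ± 0.59 (adjusted p = 1.35e-11). TEM1 was at 1.11 ± 0.47 and -5.65 ± 0.29 (adjusted p = 0.0400 and 1.74e-16), a difference of -6.75 ± 0.60 (adjusted p = 5.14e-11). The call of TEM1 at 12 h was lost without phyB replicate 1 or 3 (adjusted p = 0.124 and 0.0809) and without WT replicate 2 or 3 (0.60 and adjusted p = 0.223, and adjusted p = 0.0887). SESA1 was at -1.10 ± 0.34 and 5.66 ± 0.49 (adjusted p = 0.00582 and 1.44e-11), a difference of 6.76 ± 0.60 (adjusted p = 4.20e-11).

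AT1G17960 had a difference of -6.46 ± 1.205 (adjusted p = 2.20e-05). Its WT libraries at 12 h held 1 count together and those of phyB 17, a ratio of 18.4 with a 95% counting interval of 2.88 to 767, and at 48 h the change was -2.67 ± 0.58 (adjusted p = 0.000109).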

How the results depend on the processing

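The choice of genes depends on its limits. With a pseudocount of 1 CPM it gave 19 higher and 1 lower gene, with a 5 CPM minimum 33 and 23, and where no hid1 and WT libraries might overlap 54 and 6. TMM scaling gave 59 and 22, and the deposited FPKM, tried after the data were seen, 55 and 24, of which 47 and 19 were the same genes. Leaving out 1 of 18 libraries gave 53 to 62 higher and 10 to 44 lower genes.

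Same-numbered libraries did not pair (correlations of their deviations -0.07 to 0.12 over 15). With the replicate block 5 in place of 3 lower genes were called higher in phyB at 24 h, as with no filter on low counts. With phyB labels exchanged the lower genes called higher were 5 in place of 8 at 12 h and 7 in place of 3 at 24 h, and the higher genes called lower at 24 h were 7 in place of 11. With total counts, phyB at 48 h gave 19 in place of 11 higher genes called lower and 1 in place of 3 lower genes called higher. In WT from 12 to 24 h it gave 7 in place of 13 higher genes called lower. That scaling moved the share of higher calls among all genes from 44.8% to 29.1% in phyB at 48 h, 47.9% to 32.4% at 24 h, 46.7% to 56.7% at 12 h, and 50.5% to 71.9% in WT from 12 to 24 h. Without 1 library, 5 to 9 higher genes were called lower (5 without WT replicate 1) and 5 to 8 lower genes higher in phyB at 12 h (5 without WT replicate 2 or phyB replicate 3). At 48 h 1 to 3 lower genes were called higher (1 without phyB replicate 1).

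Signs reversed with the labels exchanged for AT3G20710 (-0.26), NUC-L2 (AT3G18610, -0.51), AT1G71280 (-0.23) and PAD3 (AT3G26830, 1.68) at 12 h and PAD3 (-2.36) at 24 h. JAL33 (AT3G16450) from 12 to 24 h in WT stood at -0.03, and between -0.50 and 1.005 without 1 library (1.005 without WT 12 h replicate 1). The cause was not tested. Among named genes 38 further calls were gained and 48 lost. In the last 150 bases before the start, 6.12% of higher genes held the second W-box (12.4% of all), 2.04% the GCC-box (1.10%), 8.16% the phytochrome-interacting factor site (6.89%) and 12.2% the SOG1 motif (6.04%). Of lower genes 0% held that site, the SOG1 motif or the second abscisic acid element (2.74% of all).

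Limits: of the 57 higher genes 24 had WT and hid1 group means under 5 CPM throughout, so that few counts stand behind their ratios. The median group mean of the 27 lower genes was 1.24 CPM in WT and 0.291 CPM in hid1 at 12 h. At 24 h it was 2.21 CPM in WT and 0.578 CPM in hid1. Few counts thus stand behind many of their ratios at these times too. The hid1 and phyB comparisons share WT libraries.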

Other observations

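Both members annotated as UCP015417 proteins with a vWA domain, picked after their values were seen, were highest in hid1 at 48 h. AT5G13210 was at 93.5 to 109.7 CPM in hid1 and 2.85 to 4.82 CPM in WT at 48 h, and AT3G24780 at 27.3 to 29.2 and 0.482 to 0.581 CPM. AT5G13210 was also higher in phyB at 48 h (2.02 ± 0.17, adjusted p = 9.03e-12), where AT3G24780 was at -1.11 ± 0.55 (adjusted p = 0.0594). The noncoding transcript AT1G67105 was at 67.8 to 75.5 CPM in hid1 and 4.40 to 6.01 CPM in WT at 48 h, and in the libraries labelled phyB 12 h it was below WT (-2.33 ± 0.27, adjusted p = 1.54e-08). With the phyB labels of 12 and 24 h exchanged it was at -1.42 ± 0.24 at 12 h (edgeR adjusted p = 9.72e-06).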
